A study of Mus musculus with 8 samples.

Results

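A set of 33 genes of fatty acid oxidation, ketone body synthesis and the nuclear receptor PPARA was described in mouse liver after SLIT2, acetaminophen (APAP) or both. The genes were taken by symbol from a fixed list of 33, each matched to 1 of the 23006 genes in the count table through the mouse annotation, and no measured value entered that choice. By role they were 3 regulators, 5 genes of fatty acid activation and entry into mitochondria, 9 genes of the mitochondrial oxidation spiral, 2 that handle unsaturated fatty acids there, 3 of electron transfer, 8 of peroxisomes, 2 of ketone bodies and Vnn1, a PPARA target outside oxidation. All 33 passed the filter on low counts, which 16876 genes passed in all.

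The study holds 8 liver RNA libraries from mice labelled wild type, in 4 groups of 2. The control group received only phosphate-buffered saline (PBS). The SLIT2 group received SLIT2, a secreted protein that binds ROBO receptors, by intraperitoneal injection at 2 µg per mouse for 3 days, without APAP. PBS with 400 mg/kg APAP was given to the APAP group, both agents were given to the SLIT2+APAP group, and livers were taken 24 h after APAP. Strain, sex and age are not given in the labels used here, nor is it stated that the replicates are different animals, so p-values measure the spread between libraries, which may be technical. The APAP libraries carry the numbers 3 and 4 and the other groups 1 and 2.

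In β-oxidation a fatty acid bound to coenzyme A is shortened from its carboxyl end through repeated rounds of dehydrogenation, hydration, a further dehydrogenation and thiolytic cleavage. Mitochondria do this for most chain lengths once carnitine has carried the acyl group inside, peroxisomes take very long and branched chains, and in liver much of the acetyl-CoA leaves as ketone bodies. PPARA, bound to DNA together with a retinoid X receptor, raises the transcription of genes at nearly every one of these steps when fatty acids are mobilised, as in fasting. APAP overdose is known to injure hepatocytes, the cells that carry most of this metabolism in liver, and their mitochondria.

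Library totals ranged between 60.8 M and 100.5 M counts (M, 1000000). The 13 mitochondrially encoded genes took 60.2% and 69.0% of the counts in the SLIT2 libraries, 25.1% and 30.3% with both agents and 13.4% to 17.3% in the other 4 libraries, which left 18.9 M and 25.1 M counts for all other genes in the SLIT2 libraries and 55.2 M to 85.8 M elsewhere. Expression is given as counts per 1000000 (CPM), with library sizes scaled by the trimmed mean of M-values (TMM). Hepatocyte markers (15 genes) were all detected in every library and summed to 86500 and 110000 CPM in the control libraries, 21100 and 11600 with SLIT2, 149000 and 131000 with APAP and 98800 and 91400 with both. Skeletal muscle markers (14 genes) summed to 1250 CPM in control 1 and 141 in control 2, against 1.19 to 9.98 in the other 6 libraries. Neutrophil markers (7 genes) summed to 3.55 and 4.64 CPM in the control libraries, 37.6 and 33.8 with SLIT2, 23.0 and 8.65 with APAP and 7.96 and 9.66 with both.

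Per kilobase of exon, the scale on which levels of different genes can be compared, the controls held most Fabp1, the liver fatty acid-binding protein, at 7230 ± 593 CPM per kb (SD, n = 2). Next came Etfb at 459 ± 29.0 and Acaa2 at 373 ± 7.90 CPM per kb, while Ppara, Pdk4 and Ppargc1a stood lowest of the 33 at 6.11 ± 0.0319, 3.37 ± 3.20 and 1.14 ± 0.104 CPM per kb. The 33 genes together summed to 11372 and 10552 CPM in the control libraries, 2930 and 1715 with SLIT2, 7575 and 9663 with APAP and 6819 and 6642 with both. The SLIT2 libraries were thus the lowest on this sum and APAP 3 stood apart from APAP 4. Of the counts outside mitochondrially encoded genes, the set took 1.19% and 1.21% in the control libraries and 0.79% and 0.503% with SLIT2. These shares were 0.835% and 1.16% with APAP and 0.987% and 1.11% with both. On this scale the SLIT2 libraries were still the lowest, with a smaller fall, and SLIT2 1 lay close to APAP 3. In bulk tissue, fewer cells of a type and less RNA per cell cannot be told apart.

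**Figure D1:**
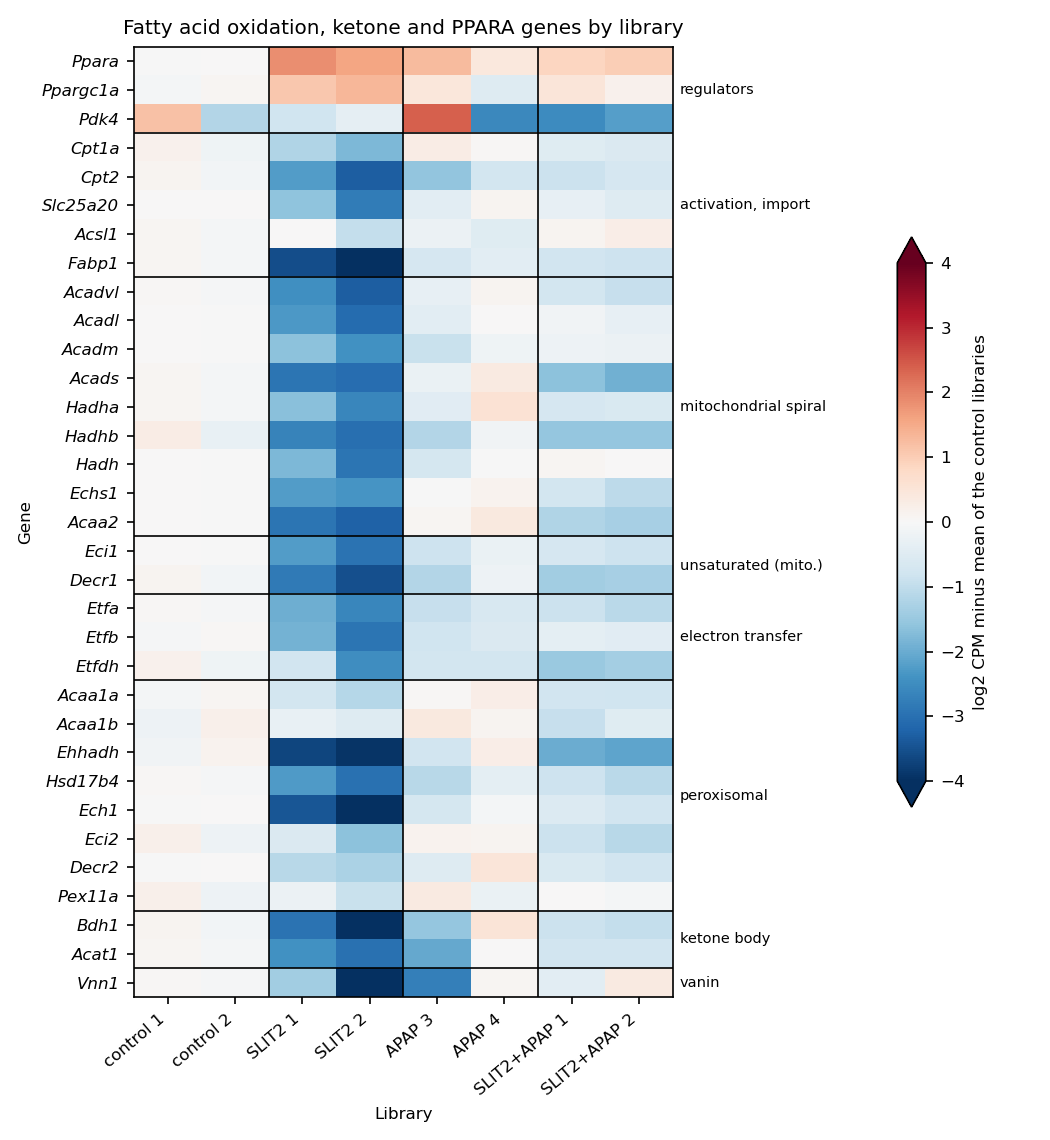
Heat map of the 33 genes (rows, by role) in the 8 libraries (columns). Colour is log2 CPM minus the mean of the control libraries, with the scale capped at -4 and 4. The SLIT2 columns are blue for most genes and red for Ppara and Ppargc1a, the 2 SLIT2+APAP columns are alike, and the APAP columns differ from each other for Pdk4, Bdh1, Acat1 and Vnn1.

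PPARA and its retinoid X receptor partner bind a direct repeat of the hexamer AGGTCA with 1 base between the copies, and the regions before the gene starts were searched for it because these genes include many known PPARA targets. RefSeq windows (GRCm38.p6) of 300 bases, from 250 before to 50 after a start, were at hand for 28 of the 33 genes (30 windows) and were searched on both strands. A repeat with no mismatch lay in 13 of 32851 windows of all genes (0.0396%), one with at most 1 mismatch in 182 (0.554%) and one with at most 2 in 1268 (3.86%). Among the 28 genes these counts were 0, 1 and 4. The 4 closest matches are printed in the orientation of the repeat, with both hexamers in capitals and the base between them in lower case. First base means the base of the match furthest upstream on the strand of the gene. Fabp1 and Etfa match on the strand opposite the gene, so for them that base is the last one printed.
Fabp1, 1 mismatch, first base 67 before the start: AGGCCAtAGGTCA
Echs1, 2 mismatches, first base 83 before the start: AGGTCAcGGGTCC
Etfa, 2 mismatches, first base 77 before the start: AGGGCAaAGGTAA
Slc25a20, 2 mismatches, first base 6 after the start: AGGTGAaAGGTCG
Of the genes called in SLIT2+APAP against APAP that have a window, Echs1 was the only one with a match, and its upstream stretch is shown for that reason with the match in capitals. Fabp1, the most abundant of the 33, was added after the values were seen. Each stretch runs 5′ to 3′ on the strand of the gene and ends before both the RefSeq and the GENCODE start.
Echs1, chr7:140116477-140116671, minus strand: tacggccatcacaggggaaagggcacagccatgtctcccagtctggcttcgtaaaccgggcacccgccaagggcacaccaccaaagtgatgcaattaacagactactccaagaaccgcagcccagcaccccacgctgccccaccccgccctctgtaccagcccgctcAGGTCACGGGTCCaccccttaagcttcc
Fabp1, chr6:71199629-71199826, plus strand: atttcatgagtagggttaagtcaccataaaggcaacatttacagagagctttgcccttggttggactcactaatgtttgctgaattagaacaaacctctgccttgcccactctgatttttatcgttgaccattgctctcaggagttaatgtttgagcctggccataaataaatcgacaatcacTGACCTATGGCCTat
A match is a description of these letters and no sign of binding. Hadha and Hadhb, which encode the 2 subunits of the mitochondrial trifunctional protein, start head to head on chromosome 5 with 272 bases between their RefSeq starts. The part of that interval outside both GENCODE genes is shown, on the plus strand, because both genes share it.
Hadha and Hadhb, chr5:30155163-30155247, plus strand: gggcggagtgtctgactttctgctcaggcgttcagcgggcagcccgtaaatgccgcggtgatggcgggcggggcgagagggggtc

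Among the regulators, Ppara itself and the coactivator Ppargc1a rose with SLIT2 alone. Ppara (chr15:85734983-85802819, plus strand) read 23.3 and 23.5 CPM in the control libraries, 84.9 and 70.6 with SLIT2, 55.7 and 31.6 with APAP and 42.1 and 45.9 with both. The SLIT2 libraries were the highest of all and the controls the lowest, without overlap between them and any other group. By edgeR's quasi-likelihood test the log2 fold change was 1.73 ± 0.29 (SE) for SLIT2 against control, with an adjusted p of 0.00151 over all genes, and 0.90 ± 0.28 for APAP against control, with an adjusted p of 0.113. In SLIT2+APAP against APAP it was 0.01 ± 0.28 (adjusted p = 0.983). Ppargc1a, which encodes a coactivator of PPARA and of other nuclear receptors, read 7.06 and 8.02 CPM in the control libraries, 16 and 19.1 with SLIT2, 10.3 and 5.2 with APAP and 10.6 and 8.41 with both. Its SLIT2 libraries were again the highest, at a log2 fold change of 1.22 ± 0.33 (edgeR adjusted p = 0.0155). This call was lost without control 1, control 2 or SLIT2 2, with an adjusted p of at most 0.104.

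Pdk4, whose product inhibits pyruvate dehydrogenase and so favours fat as fuel, read 19.8 and 3.87 CPM in the control libraries, 5.07 and 6.81 with SLIT2, 45.4 and 1.46 with APAP and 1.51 and 1.89 with both. The spread lay within the groups: APAP 3 stood 31.2-fold above APAP 4, and control 1 far above control 2. Pdk4 is also abundant in muscle, and control 1 was the library with the highest sum of muscle markers, while APAP 3 had only 9.98 CPM of them; their part in the Pdk4 values was not tested. No comparison called Pdk4 by edgeR, with log2 fold changes of 0.99 ± 1.21 for APAP against control (adjusted p = 0.644) and -3.78 ± 1.36 for SLIT2+APAP against APAP (adjusted p = 0.0981). Both SLIT2+APAP libraries lay above APAP 4 and far below APAP 3.

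**Figure D2:**
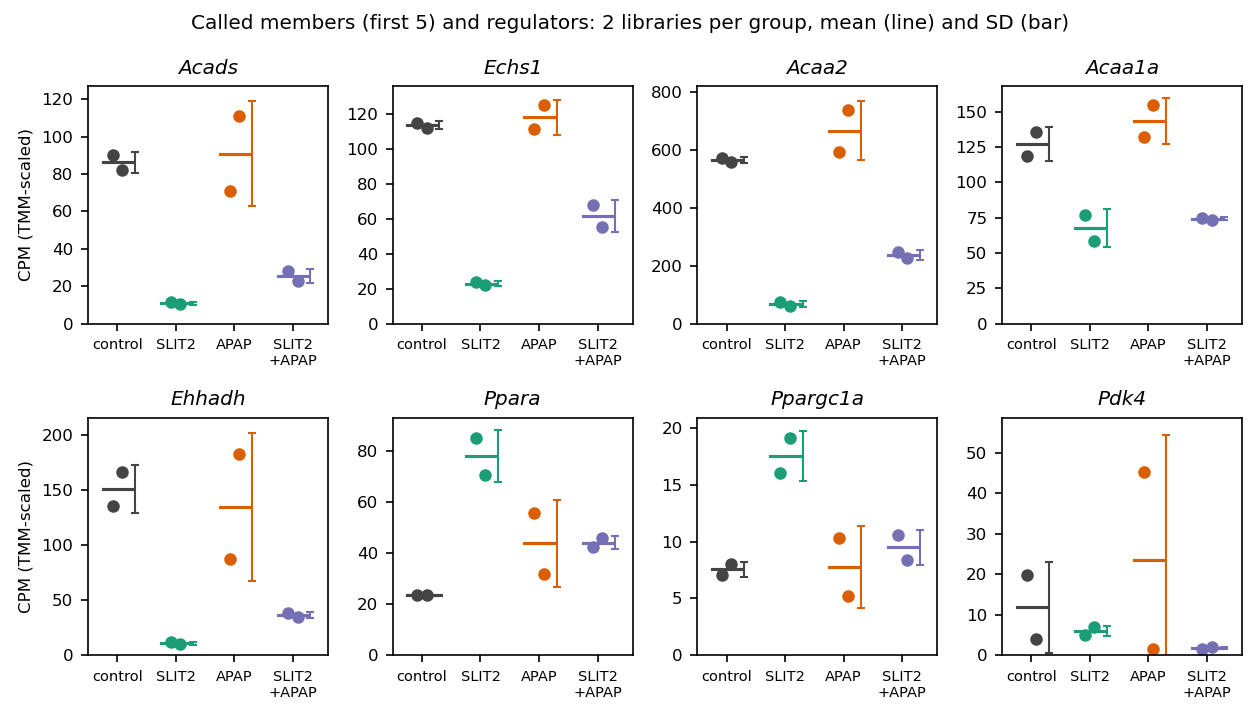
CPM on TMM-scaled library sizes of the 5 genes called in SLIT2+APAP against APAP and of the 3 regulators. Points are single libraries (2 per group), lines are group means and bars are SD, with any bar that would pass below 0 ended there. For the first 5 genes both SLIT2+APAP libraries lie below both APAP libraries, whereas Pdk4 spreads widely between the libraries of the control and APAP groups.

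APAP alone changed none of the 33 genes past the threshold, and its 2 libraries disagreed on many of them. By edgeR 0 of the 33 were called (adjusted p under 0.05), with 3 at an unadjusted p under 0.05, and DESeq2 called 1, Cpt2 (lower), with 5 at an unadjusted p under 0.05. Over all genes tested edgeR called 0.788% (133 of 16876), with 4149 at an unadjusted p under 0.05. DESeq2 called 1836 of 23006 genes, with 4154 at an unadjusted p under 0.05. In counts simulated for this comparison, the fit found 3% of 2-fold changes and 76% of 4-fold changes. The changed genes were drawn at random from expressed genes, and the wide spread between the APAP libraries was not simulated. These shares are therefore no measure for the 33 genes. The median log2 fold change of the 33 was -0.17, against 0.05 over all genes. Scaling by library totals alone, which moves the median of all genes by 0.12 in this comparison, gave -0.03. Both APAP libraries lay below both controls for 11 of the 33 genes (26.1% of all genes did so) and above them for 2, Acaa2 and Ppara (26.9% of all genes).

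Cpt2 showed the largest negative value and was the gene that DESeq2 called. It encodes the carnitine palmitoyltransferase of the inner mitochondrial membrane and read 185 and 162 CPM in the control libraries, 36.4 and 17.4 with SLIT2, 58.3 and 104 with APAP and 95.8 and 109 with both. Both APAP libraries were below both controls, and the log2 fold change was -1.10 ± 0.39 (edgeR adjusted p = 0.142). The electron transfer flavoprotein subunits Etfa and Etfb, which take electrons from the acyl-CoA dehydrogenases, were also lower in both APAP libraries. Etfa read 366 and 337 CPM in the control libraries, 91.1 and 58 with SLIT2, 185 and 225 with APAP and 193 and 165 with both. Etfb read 511 and 558 CPM in the control libraries, 144 and 70.1 with SLIT2, 306 and 359 with APAP and 411 and 391 with both. Their log2 fold changes with APAP were -0.78 ± 0.27 and -0.69 ± 0.34 (edgeR adjusted p = 0.137 and 0.251).

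The ketone body genes and Vnn1 were among those that differed between the APAP libraries, in the direction opposite to Pdk4, and they are given here after their values were seen. Acat1, the mitochondrial acetoacetyl-CoA thiolase, read 358 and 321 CPM in the control libraries, 64 and 42.4 with SLIT2, 81.7 and 345 with APAP and 199 and 199 with both. Bdh1, which interconverts acetoacetate and β-hydroxybutyrate, read 153 and 131 CPM in the control libraries, 18.5 and 8.98 with SLIT2, 48.6 and 204 with APAP and 78.9 and 73.9 with both. Vnn1, a pantetheinase, read 47.3 and 43.6 CPM in the control libraries, 17.5 and 2.81 with SLIT2, 6.81 and 48.4 with APAP and 33.6 and 58 with both. In all 3 genes APAP 4 was close to or above the controls and APAP 3 was far below them, so that APAP 4 exceeded APAP 3 by 4.22-fold, 4.19-fold and 7.11-fold. In all, 24 of the 33 genes (72.7%) were higher in APAP 4 than in APAP 3, as were 47.4% of all genes tested, and 7 (21.2%; all genes 24.2%) lay more than 2-fold apart. Between the 2 controls 1 gene (Pdk4) lay so far apart, between the SLIT2+APAP libraries none did, and between the SLIT2 libraries 10 did. The median difference of the 33 from the controls was -0.51 (log2) in APAP 3 and 0.01 in APAP 4, while that of the hepatocyte markers was 0.43 and 0.30. Without APAP 4 the comparison called 8 of the 33 genes (24.2%, below the 28.7% of all genes called in that fit), with Acat1, Bdh1, Cpt2, Decr1, Ehhadh, Hadhb and Hsd17b4 lower and Ppara higher, and without APAP 3 it called 0 (3.1% of all genes; 2 of the 33 at an unadjusted p under 0.05). With 2 libraries a group, an exact 2-sided permutation test of a single gene cannot give a p below 0.333.

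**Figure D3:**
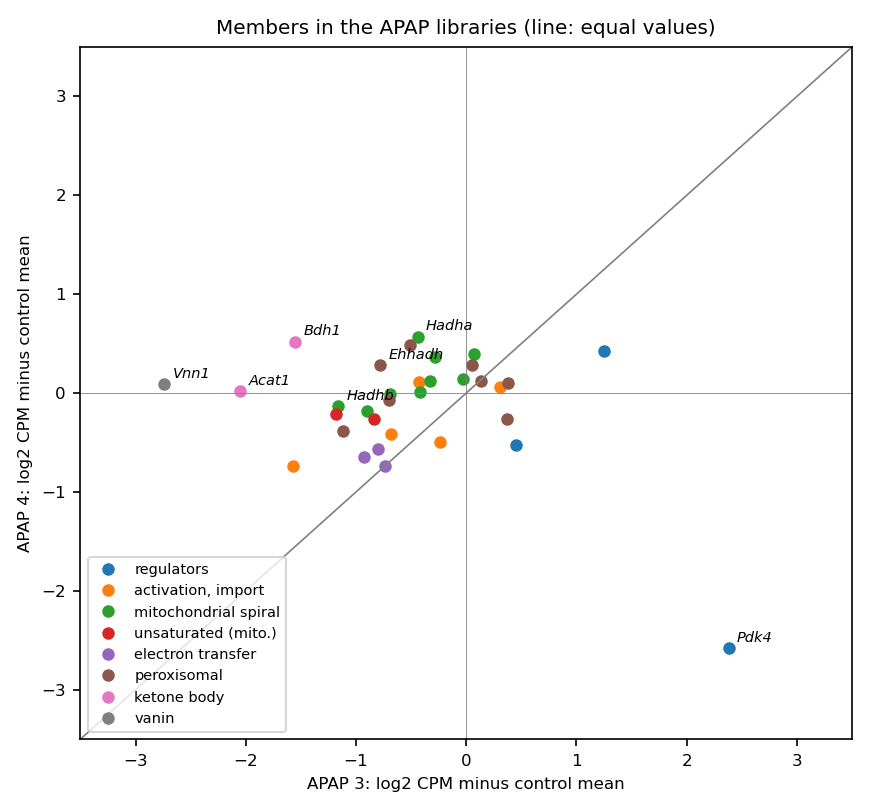
Each point is 1 of the 33 genes, coloured by role, with its log2 CPM minus the control mean in APAP 3 (horizontal axis) and in APAP 4 (vertical axis). The line marks equal values. Labelled genes differ more than 2-fold between the libraries, and Acat1, Bdh1 and Vnn1 lie far to the left of it while Pdk4 lies at the lower right.

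With SLIT2 alone most genes of the set fell, from mitochondrial entry to peroxisomal oxidation, against a background in which many genes moved. Of the 33 genes, 26 were called lower (78.8%) and 2 higher, where 27.6% of all genes were called lower and 27.3% higher. The median log2 fold change was -2.26, against 0 over all genes, and library totals alone (a shift of 0.12 in the median of all genes) gave -2.10. Hepatocyte markers moved alongside: 14 of 15 were called lower with a median of -2.54, and the SLIT2 libraries had the high mitochondrial shares given above. Whether the drop of the 33 genes is distinct from that of hepatocyte transcripts in general was not tested. SLIT2 2 was the lower of the pair for 31 of the 33 genes, with a median difference from the controls of -2.92 against -1.89 in SLIT2 1. For the hepatocyte markers the same medians were -2.99 and -2.12.

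Fabp1 fell the most. It read 4230 and 3760 CPM in the control libraries, 343 and 138 with SLIT2, 2490 and 3010 with APAP and 2330 and 2230 with both, a log2 fold change of -4.05 ± 0.47 with SLIT2 (edgeR adjusted p = 0.000298). The carnitine shuttle followed. Cpt1a, the outer-membrane carnitine palmitoyltransferase that controls entry into mitochondria, read 206 and 165 CPM in the control libraries, 80.2 and 52.9 with SLIT2, 228 and 193 with APAP and 131 and 124 with both. Slc25a20, the carnitine-acylcarnitine carrier, read 116 and 116 CPM in the control libraries, 38.2 and 16.7 with SLIT2, 86.4 and 125 with APAP and 91.9 and 80.3 with both. Both SLIT2 libraries lay below all others in each, with log2 fold changes of -1.48 ± 0.27 for Cpt1a and -2.08 ± 0.39 for Slc25a20, and -2.69 ± 0.41 for Cpt2 (edgeR adjusted p = 0.00223, 0.00263 and 0.00103). The fifth gene of this role, the acyl-CoA synthetase Acsl1, was not called, at -0.38 ± 0.33 (adjusted p = 0.354), and its SLIT2 libraries overlapped the controls.

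All 9 genes of the mitochondrial spiral were called lower with SLIT2, with log2 fold changes from -3.08 to -1.97 (median -2.65). The acyl-CoA dehydrogenases open each round and are named for the chain length they prefer. Acadvl, for very long chains, read 366 and 344 CPM in the control libraries, 65.5 and 35.7 with SLIT2, 283 and 387 with APAP and 215 and 189 with both. Acadl, for long chains, read 182 and 180 CPM in the control libraries, 36.5 and 21.3 with SLIT2, 135 and 182 with APAP and 164 and 145 with both. Acadm, for medium chains, read 246 and 241 CPM in the control libraries, 78.7 and 45.6 with SLIT2, 130 and 215 with APAP and 211 and 206 with both. In these 3 genes the SLIT2 libraries were the lowest, and the log2 fold changes were -2.81 ± 0.34, -2.65 ± 0.31 and -1.97 ± 0.34 (edgeR adjusted p = 0.000358, 0.000317 and 0.00179). Hadh, the hydroxyacyl-CoA dehydrogenase for shorter chains, read 209 and 201 CPM in the control libraries, 58.7 and 27.1 with SLIT2, 127 and 204 with APAP and 215 and 207 with both. Hadhb, the thiolase subunit of the trifunctional protein, read 228 and 153 CPM in the control libraries, 29.5 and 22.9 with SLIT2, 83.6 and 170 with APAP and 64.2 and 64.1 with both. With SLIT2 their log2 fold changes were -2.26 ± 0.39 and -2.86 ± 0.38 (edgeR adjusted p = 0.00188 and 0.000553), and Hadha, the other subunit, fell by 2.06 ± 0.41 (adjusted p = 0.0035). With both agents Hadh lay near the controls and Hadhb below them.

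The auxiliary genes for double bonds followed the spiral. Eci1, an enoyl-CoA isomerase, read 133 and 128 CPM in the control libraries, 27.6 and 16.9 with SLIT2, 73.2 and 110 with APAP and 81.9 and 72.9 with both. Decr1, the dienoyl-CoA reductase of mitochondria, read 202 and 171 CPM in the control libraries, 26.4 and 16.3 with SLIT2, 82.2 and 161 with APAP and 71.6 and 73.9 with both. Both were called lower with SLIT2, at -2.55 ± 0.31 and -3.13 ± 0.38 (edgeR adjusted p = 0.00037 and 0.000377). The 3 electron transfer genes were called lower too, Etfa at -2.24 ± 0.28, Etfb at -2.32 ± 0.35 and Etfdh, the flavoprotein's ubiquinone oxidoreductase, at -1.41 ± 0.47 (edgeR adjusted p = 0.000428, 0.001 and 0.0346). The ketone body genes Bdh1 and Acat1 had log2 fold changes of -3.37 ± 0.65 and -2.68 ± 0.59 (edgeR adjusted p = 0.00313 and 0.00599).

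The 8 peroxisomal genes ranged more widely, from -3.89 to -0.42 (log2, median -1.11), with 6 called lower by SLIT2. Ech1, a dienoyl-CoA isomerase, read 359 and 364 CPM in the control libraries, 34 and 14.6 with SLIT2, 222 and 344 with APAP and 244 and 211 with both, a log2 fold change of -3.89 ± 0.44 with SLIT2 (edgeR adjusted p = 0.00028). Hsd17b4, the bifunctional enzyme that handles branched chains and bile acid precursors, read 339 and 316 CPM in the control libraries, 67.8 and 41.8 with SLIT2, 151 and 252 with APAP and 183 and 155 with both, with -2.58 ± 0.34 (adjusted p = 0.000552). Smaller falls were called for Decr2 (-1.18 ± 0.31), Eci2 (-1.03 ± 0.34) and Acaa1a (-0.91 ± 0.22), with edgeR adjusted p of 0.0135, 0.0322 and 0.00929. Acaa1b, a second peroxisomal thiolase, and Pex11a, a membrane protein of peroxisome division, were not called, at -0.42 ± 0.26 and -0.54 ± 0.31 (edgeR adjusted p = 0.203 and 0.168). Of the 28 calls with SLIT2, 22 held under all 18 alternatives. Those of Ppargc1a, Acaa1a, Eci2, Decr2, Etfdh and Acat1 were each lost without 1 or more single libraries, which were control 1, control 2, either SLIT2 library or, for Etfdh, either SLIT2+APAP library, and their adjusted p then reached at most 0.151. Acaa1a, Eci2 and Etfdh were also lost with library totals alone, these and Decr2 with the filter at 10 CPM, and Etfdh with only the 4 libraries compared, at an adjusted p of at most 0.186. Vnn1 was not called either (-2.16 ± 0.97, adjusted p = 0.0928).

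**Figure D4:**
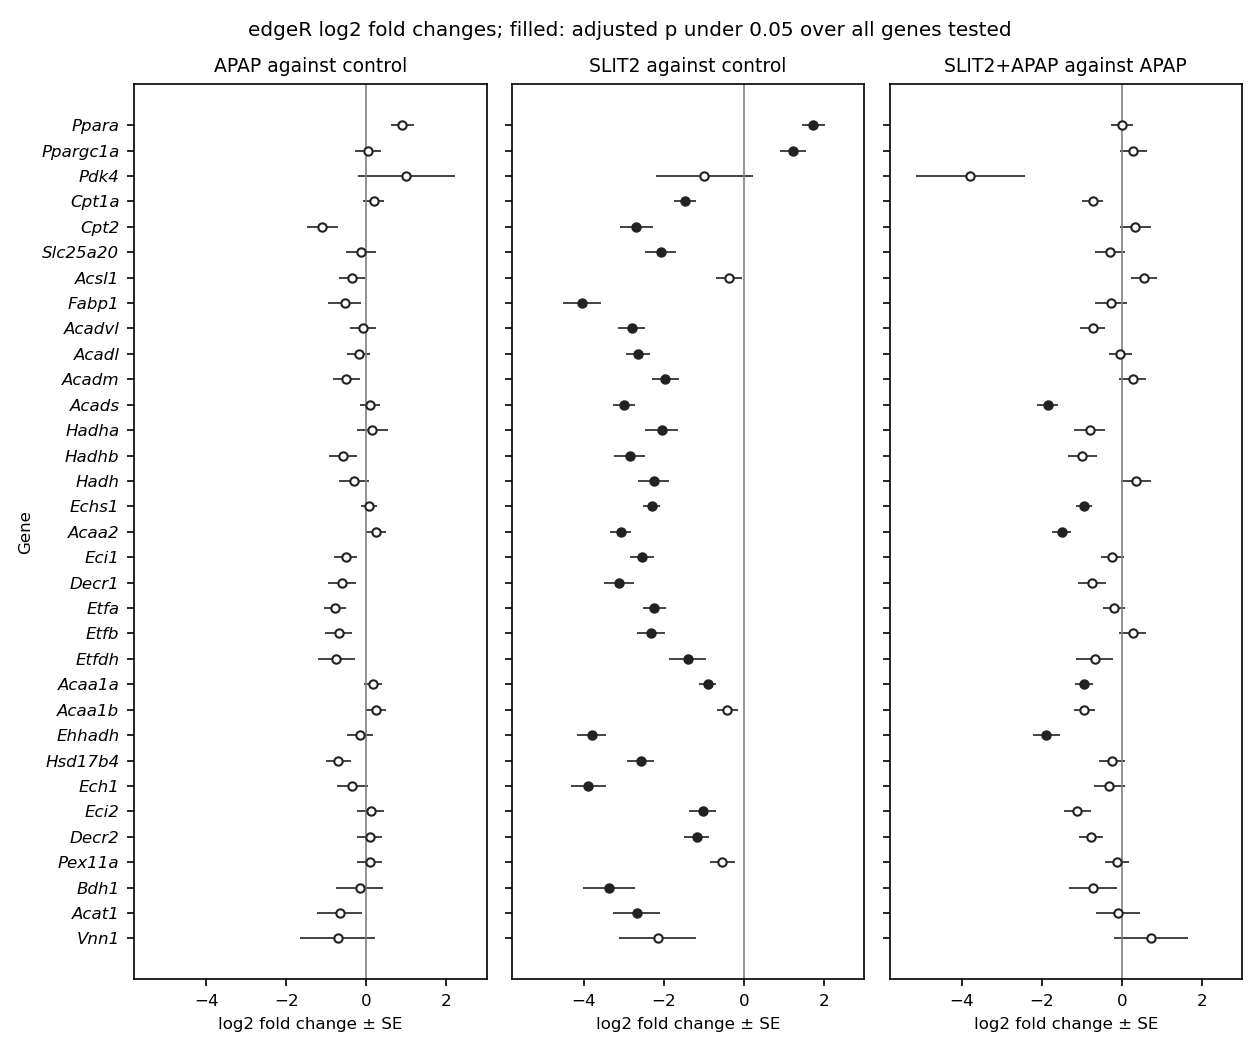
Log2 fold changes with standard errors from edgeR for the 33 genes (rows, by role) in 3 comparisons. Filled points have an adjusted p under 0.05 over all 16876 genes. No point is filled for APAP against control, most are filled and negative for SLIT2 against control except Ppara and Ppargc1a, and 5 negative points are filled for SLIT2+APAP against APAP.

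When both agents were given, 5 genes were lower than with APAP alone: Acads, Echs1 and Acaa2 of the mitochondrial spiral and Ehhadh and Acaa1a of the peroxisome. These are 15.2% of the 33, where 7.63% of all genes were called lower, and no gene of the set was called higher. Echs1 hydrates the enoyl-CoA in mitochondria and Ehhadh does so in peroxisomes, where Acaa1a, like Acaa2 in mitochondria, carries out the final cleavage. In each of the 5 genes both SLIT2+APAP libraries lay below both APAP libraries.

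Acads (chr5:115110299-115119346, minus strand), the dehydrogenase for short chains, read 90.4 and 82.2 CPM in the control libraries, 11.3 and 10.3 with SLIT2, 71.1 and 111 with APAP and 27.9 and 22.6 with both. The log2 fold change of SLIT2+APAP against APAP was -1.85 ± 0.26 (edgeR adjusted p = 0.00821). Its APAP libraries bracketed the controls, and both SLIT2+APAP libraries were above the SLIT2 libraries and below all others. Acaa2, the thiolase that ends each mitochondrial round, read 574 and 558 CPM in the control libraries, 74.6 and 59.6 with SLIT2, 595 and 740 with APAP and 248 and 225 with both, with a log2 fold change of -1.50 ± 0.24 (edgeR adjusted p = 0.0116). Here both APAP libraries were above both controls, and the order of the groups was otherwise that of Acads. Echs1 (chr7:140105710-140116476, minus strand), the short-chain enoyl-CoA hydratase whose upstream stretch is printed above, read 115 and 112 CPM in the control libraries, 23.8 and 21.9 with SLIT2, 111 and 125 with APAP and 67.9 and 55.1 with both. It fell by 0.94 ± 0.20 on the log2 scale (edgeR adjusted p = 0.0241).

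Ehhadh (chr16:21761287-21787807, minus strand), the peroxisomal bifunctional hydratase and dehydrogenase and a textbook PPARA target, read 135 and 166 CPM in the control libraries, 11.7 and 9.8 with SLIT2, 87.2 and 182 with APAP and 38 and 34.5 with both. Its APAP libraries lay 2.08-fold apart on either side of the controls, and both SLIT2+APAP libraries were below all of these, at a log2 fold change of -1.89 ± 0.34 against APAP (edgeR adjusted p = 0.0152). Acaa1a (chr9:119339676-119350299, plus strand), a peroxisomal thiolase named because it completes the count of 5, read 119 and 136 CPM in the control libraries, 77.1 and 58.3 with SLIT2, 132 and 155 with APAP and 75 and 73.4 with both, with -0.95 ± 0.22 (edgeR adjusted p = 0.0305). Its near copy Acaa1b read 385 and 499 CPM in the control libraries, 352 and 306 with SLIT2, 569 and 470 with APAP and 233 and 310 with both, with nearly the same value, -0.94 ± 0.26 (adjusted p = 0.0528). The longest transcripts of the pair were identical at 96.0% of 1450 aligned bases, and 21.6% of the 100-base windows of Acaa1a recurred in Acaa1b, so reads could be split between them in a way the sources used here do not state. Acaa1a also overlaps Myd88 on the opposite strand (at most 26.3 CPM), and Echs1 overlaps Paox (at most 14.9 CPM); the strand setting of the counting is not given.

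These 5 calls rest on few libraries. All 5 were lost without SLIT2+APAP 1 or 2 (0 of the 33 called by edgeR, 6 at an unadjusted p under 0.05 in each case) and when only the 4 libraries compared were fitted (0 called, 10 at an unadjusted p under 0.05). Under the other 15 of 18 alternatives Acads, Acaa2 and Ehhadh stayed called, while Echs1 and Acaa1a were also lost without control 1 or 2 and with library totals alone, and Acaa1a with GC offsets too. The count was 11 (33.3%) without APAP 3, where 17.9% of all genes were called in either direction, and 8 (24.2%) without APAP 4, where 34.0% were. Hepatocyte markers in this comparison had a median of -0.95, with 2 of 15 called lower (Cyp2e1 and Ahsg), and their part in these 5 results was not tested.

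The other 28 genes were not called in SLIT2+APAP against APAP, and their values ran from -3.78 (Pdk4) to 0.73 (Vnn1). The median of all 33 was -0.31, against -0.06 over all genes, and library totals alone (a shift of 0.18 in the median of all genes) gave -0.15. Both SLIT2+APAP libraries lay below both APAP libraries for 15 of the 33 genes (45.5%; all genes 29.4%) and above them for 3, Acsl1, Etfb and Hadh (9.09%; all genes 28.8%). By role the median was -0.85 for the 8 peroxisomal genes, of which 2 were called, and -0.80 for the 9 spiral genes, of which 3 were called. Values were negative for all 8 and for 7 of the 9, and for 14 of 15 hepatocyte markers (median -0.95). No direction is claimed for the genes not called. The carnitine shuttle was mixed, with Cpt1a at -0.73 ± 0.26 and Cpt2 at 0.34 ± 0.38 (edgeR adjusted p = 0.0983 and 0.574). Hadha and Hadhb, which share the interval printed above, stood at -0.80 ± 0.39 and -0.99 ± 0.36 (edgeR adjusted p = 0.198 and 0.0999).

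Against the controls, the SLIT2+APAP libraries were lower for most of the set but few genes passed the test. Both libraries lay below both controls for 27 of the 33 genes (81.8%), where 32.3% of all genes did so, and 3 genes (9.09%) were called lower, where 1.45% of all genes were. These were Ehhadh at -2.05 ± 0.35, Acads at -1.77 ± 0.26 and Acaa2 at -1.26 ± 0.24 (edgeR adjusted p = 0.035, 0.0299 and 0.0444). The median of the 33 was -0.76, against 0.04 over all genes, and -0.46 with library totals alone, which shift the median of all genes by 0.30. Hepatocyte markers had a median of -0.50. All 3 calls were lost without either control, either SLIT2 library or either SLIT2+APAP library, each with 0 of the 33 called by edgeR and 8 to 19 at an unadjusted p under 0.05. Ehhadh and Acaa2 were also lost with library totals alone, and Acaa2 with the legacy fit of edgeR. Without APAP 3 or APAP 4 the count was 11 (33.3%), where 14.3% and 13.6% of all genes were called, and DESeq2 called 9. Over all genes DESeq2 called 1455 of 23006. The comparisons with control share their control libraries, and those with APAP share the APAP libraries.

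The difference between the SLIT2 effect with APAP and that without it was called for 21 of the 33 genes. It was positive for 20 (60.6%; all genes 15.5%), a less negative or more positive effect of SLIT2 in the presence of APAP, and negative for Ppara (13.4% of all genes were called negative). The median of the 33 was 1.87, against -0.09 over all genes. Fabp1 had the largest value, 3.79 ± 0.60 (log2, edgeR adjusted p = 0.00624), followed by Ech1 at 3.58 ± 0.57 and Cpt2 at 3.02 ± 0.55 (adjusted p = 0.00627 and 0.00907). Acads had the smallest of the 20, 1.15 ± 0.36 (adjusted p = 0.0468), and Ppara stood at -1.72 ± 0.40 (adjusted p = 0.0182). The hepatocyte markers moved the same way, with a median of 1.89 and 9 of 15 called positive, and the mitochondrial share differed between these groups as given above. The count over the 33 was 9 without control 1, 11 without control 2, 5 without SLIT2+APAP 1 and 14 without SLIT2 2 or SLIT2+APAP 2, where 5.54% to 11.5% of all genes were called. Calls of Cpt2, Fabp1, Acadl, Ech1 and Etfb held under all 16 alternatives, and that of Ppara was lost without control 1, control 2, SLIT2 1 or either SLIT2+APAP library (adjusted p at most 0.0966).

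Further genes of the same pathways were taken from lists by function. Their counts are to be read against all genes tested, of which SLIT2 alone called 27.6% lower and 27.3% higher and SLIT2+APAP against APAP 7.63% lower and 6.28% higher. The losses given for these genes are those without single libraries. Every call named for them in SLIT2+APAP against APAP was also lost with only the 4 libraries compared, and some under another scaling, filter or GC offsets. Among 27 tested genes of other mitochondrial fatty acid oxidation steps, 16 were called lower with SLIT2 alone (27.6% of all genes) and 1, Acad10, higher (27.3%). The 4 with the smallest p were Hsd17b10 (-2.90 ± 0.28), Acot13 (-2.48 ± 0.24), Mlycd (-2.37 ± 0.23) and Mcee (-1.88 ± 0.19), each with an edgeR adjusted p of at most 0.000177. The call of Acad10 was lost without control 1, control 2 or SLIT2 2. In SLIT2+APAP against APAP 4 of the 27 were called, all lower (7.63% of all genes). They were the acyl-CoA synthetase Acsl5, from 230 ± 129 CPM (SD, n = 2) with APAP to 69.8 ± 15.7 with both, Slc27a5, which also activates bile acids, from 537 ± 50.7 to 285 ± 42.4, the malonyl-CoA decarboxylase Mlycd, from 75.9 ± 14.1 to 41.6 ± 6.7, and Pcca, a subunit of propionyl-CoA carboxylase, from 29.9 ± 3.94 to 16.2 ± 3.92. Their edgeR adjusted p ran from 0.036 to 0.0425, and all 4 calls were lost without either control, SLIT2 2 or either SLIT2+APAP library. Leaving out single libraries gave 0 to 10 lower calls in this list, the highest adjusted p of the 4 being 0.313.

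Among 29 other peroxisomal genes 21 were called lower with SLIT2 alone (27.6% of all genes) and 2, Abcd4 and Acox3, higher (27.3%). The falls were led by Acox2 (-2.03 ± 0.20), an oxidase of branched chains and bile acid precursors, and the racemase Amacr (-2.16 ± 0.22), then Nudt19 (-1.95 ± 0.22) and Pex14, a docking protein of peroxisomal import (-2.09 ± 0.24), with edgeR adjusted p of at most 0.000307. The higher call of Acox3 was lost without control 1, control 2 or SLIT2 2, while that of Abcd4 held under all 18 alternatives. Nudt7, a peroxisomal hydrolase of coenzyme A, was the only gene of the 5 pathway lists called with APAP alone. It went from 469 ± 96 CPM (SD, n = 2) in the controls to 113 ± 4.93 with APAP, a log2 fold change of -2.05 ± 0.26 (edgeR adjusted p = 0.0327). The call was lost without control 1, either SLIT2 library or either SLIT2+APAP library (adjusted p at most 0.212). In SLIT2+APAP against APAP 3 of these 29 genes were called lower (7.63% of all genes), Pex14 at -1.60 ± 0.24, Acox2 at -1.13 ± 0.19 and Pex16 at -1.67 ± 0.40 (edgeR adjusted p = 0.00947, 0.013 and 0.0326), all 3 lost without either SLIT2+APAP library and Pex16 also without either control or SLIT2 library. Against control, Nudt7 (-2.04 ± 0.26), Acox2 (-1.18 ± 0.19) and Amacr (-1.21 ± 0.22) were called lower with both agents, where 1.45% of all genes were (edgeR adjusted p at most 0.039), and these calls were lost without control 1, either SLIT2 library or either SLIT2+APAP library.

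Of the other 10 ketone body genes, 4 were called lower with SLIT2 alone, a count close to the 27.6% of all genes, and 1, Hmgcll1, higher. Among the 4 were the transporter Slc16a1 (-2.92 ± 0.33) and Oxct1 (-3.44 ± 0.62), the transferase that starts ketone body use outside liver (edgeR adjusted p = 0.000272 and 0.00227). Skeletal muscle markers summed to 1250 and 141 CPM in the control libraries and to 2.49 and 2.61 with SLIT2. Their part in the Oxct1 value was not tested. The call of Hmgcll1 was lost without control 1 or SLIT2 1, and also with DESeq2 and the legacy fit. SLIT2+APAP against APAP called 2 of these 10 lower and 0 higher (7.63% and 6.28% of all genes). The call not named here had an edgeR adjusted p of 0.00744. The other was Slc16a6, a transporter that exports ketone bodies, which went from 41.1 ± 44.8 CPM (SD, n = 2) with APAP to 4.52 ± 1.25 with both. Its log2 fold change was -3.18 ± 0.82 (edgeR adjusted p = 0.0408). This call was lost without either SLIT2+APAP library, either control, either SLIT2 library or APAP 3.

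Among 33 tested PPARA targets outside these pathways, 19 were called lower with SLIT2 alone (27.6% of all genes) and 2, Aqp7 and Aqp3, higher (27.3%). The fatty acid transporter Cd36 (-3.85 ± 0.38), the desaturase Fads2 (-2.69 ± 0.33) and Gpd1 (-2.22 ± 0.28) fell and the glycerol channel Aqp7 (4.90 ± 0.52) rose (edgeR adjusted p at most 0.00041). SLIT2+APAP against APAP called 6 of the 33 lower and 2 higher (7.63% and 6.28% of all genes). Plin2, the coat protein of lipid droplets, went from 804 ± 604 CPM (SD, n = 2) to 106 ± 2, Fads2 from 66.6 ± 27.7 to 11.3 ± 2.3, the mitochondrial carrier Ucp2 from 19 ± 6.69 to 7.01 ± 1.11 and Aqp7 from 1.15 ± 0.758 to 4.47 ± 1.6. Their log2 fold changes were -2.92 ± 0.59, -2.56 ± 0.33, -1.44 ± 0.29 and 1.98 ± 0.47 (edgeR adjusted p = 0.0202, 0.00647, 0.0196 and 0.0318), and all 4 calls were lost without either SLIT2+APAP library, that of Ucp2 also without control 2 and that of Aqp7 also without either control or SLIT2 library. Aldh3a2 was the other gene called higher. Against control, Fads2 and Fabp3 were called lower with both agents (1.45% of all genes), Fads2 at -1.92 ± 0.32 (edgeR adjusted p = 0.035), and both calls were lost without control 1, either SLIT2 library or either SLIT2+APAP library. Fabp3 is a muscle-type fatty acid-binding protein that moved with the muscle markers of the control libraries, and it had 0 counts in both SLIT2 libraries. What part muscle transcripts had in its call was not tested.

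Of 32 partners of PPARA and other regulators, 9 were called higher with SLIT2 alone, a share near the 27.3% of all genes, and 4, Rxra, Prkaa2, Cebpa and Rxrg, lower, below the 27.6% of all genes. The count of higher calls is thus not particular to these regulators. The coactivators Ncoa2 (2.23 ± 0.21), Crebbp (2.31 ± 0.25) and Ppargc1b (4.14 ± 0.78) and the corepressor Ncor1 (1.78 ± 0.21) rose (edgeR adjusted p at most 0.0029). In SLIT2+APAP against APAP 5 were called higher (Ncor1, Crebbp, Nr3c1, Ep300 and Nr1h4) and 2 lower, Rxra among them (6.28% and 7.63% of all genes). Rxra, the retinoid X receptor most abundant in liver and the DNA-binding partner of PPARA, went from 353 ± 45.2 CPM (SD, n = 2) with APAP to 147 ± 3.54 with both, against 183 ± 3.48 in the controls, a log2 fold change of -1.27 ± 0.24 (edgeR adjusted p = 0.0163). Ncor1 (1.05 ± 0.21) and Crebbp (1.13 ± 0.24) were higher (edgeR adjusted p = 0.0194 and 0.0228). These 3 calls were lost without either SLIT2+APAP library, and that of Rxra also with library totals alone. Without control 1 or control 2 the call of Ncor1 was lost, and without control 1 that of Crebbp.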

How the data were processed

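RNA-seq of mouse liver was analysed as gene counts in 8 libraries, 2 per group. The deposited table holds raw counts per Ensembl gene, and the authors used STAR 2.5.4, Cufflinks, Cuffdiff 2.2.1 and the build mm10, per the submitters' processing notes, which give no roles; libraries came from a directional kit, per the labels' protocols. How reads were counted, with which strand setting and annotation release, and how reads with several matches were treated, is not stated in those notes or the labels. The deposited counts hold 93 values that reach 1000000, and 72 of them end in 0, which points to rounding; no count of the 33 genes is that large. Symbols, coordinates, exon lengths and GC content came from GENCODE M21 (GRCm38) and matched 22341 of 23006 identifiers; promoter windows came from RefSeq (GRCm38.p6).

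Tests used edgeR 4.0.16 in R 4.3.3: filterByExpr over the 4 groups (16876 genes), TMM, and a robust quasi-likelihood fit (legacy = FALSE) of 1 mean per group to all 8 libraries, with 4 residual degrees of freedom, so that groups share 1 estimate of the spread. Calls required an adjusted p (Benjamini-Hochberg, over all genes tested) under 0.05. Replicates differed by more than sampling noise (chi-square per degree of freedom 128 to 693), and counting error is small beside that spread. Log2 values per library carry a prior count of 0.5.

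The genes and lists were chosen with earlier results of these data known. Values in every library are given for genes called in any comparison, the regulators and the largest change per role, which 30 of 33 met, and then, as the rule set, for the 20 with the smallest p and the 3 regulators (22 genes, since the sets overlap); up to 4 called genes per further list and comparison are named, and others where a count is completed. Some genes of the further lists that this rule names enter the counts but are not reported here. Of the symbols on all lists 2 were not matched. Alternatives were other scalings (DESeq2 size factors within edgeR, or library totals), other filters (none, or 10 CPM in at least 2 libraries), other tests (DESeq2 1.42.0, edgeR's legacy fit), GC offsets, leaving out the 13 mitochondrially encoded genes, the SLIT2 libraries, all but the 4 libraries of a comparison or each library in turn, a replicate block and a prior count of 2. A group left with 1 library was assumed to vary like the others. On counts simulated for APAP against control, the fit found 76% of 100 4-fold changes and 3% of 100 2-fold changes. It made 81 calls, 2 of them false. Figures were drawn with matplotlib 3.10.9.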

Additional observations from a re-analysis of the deposited data

Results flagged for a closer look

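The effect of SLIT2 on the log2 scale differed between mice given APAP and mice not given it for 21 of the 33 genes, by edgeR's interaction term with an adjusted p under 0.05 over all genes. This term was called positive for 15.5% of all genes and negative for 13.4%. Hepatocyte markers had a median of 1.89, with 9 of 15 called positive. Of the 21 calls, 5 held under all 16 alternatives. Values are the effect with APAP minus that without. In the entry step they were 3.02 for Cpt2, 1.78 for Slc25a20 and 3.79 for Fabp1. In the mitochondrial spiral they were 2.08 for Acadvl, 2.61 for Acadl, 2.24 for Acadm, 1.15 for Acads, 1.87 for Hadhb, 2.60 for Hadh, 1.37 for Echs1 and 1.58 for Acaa2. The genes for unsaturated chains stood at 2.31 for Eci1 and 2.39 for Decr1, and the electron transfer genes at 2.04 for Etfa and 2.59 for Etfb. Peroxisomal genes gave 1.92 for Ehhadh, 2.33 for Hsd17b4 and 3.58 for Ech1, and the ketone body genes 2.65 for Bdh1 and 2.58 for Acat1. Ppara alone was negative, at -1.72. The control and SLIT2 libraries enter this difference, and the SLIT2 libraries carry mitochondrial shares of 60.2% and 69.0%; the part of that share in these values was not tested.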

How the results depend on the processing

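No called gene of the 33 changed direction under any alternative. Summed over called genes and alternatives, the call held in 479 of 504 values for SLIT2 against control, 68 of 90 for SLIT2+APAP against APAP, 33 of 57 for SLIT2+APAP against control and 264 of 336 for the interaction. Among genes not called, the sign turned under some alternative for 17 of 33 in APAP against control and 14 of 28 in SLIT2+APAP against APAP, so no direction is claimed for them. A prior count of 2 left the medians per library as they were to 2 decimals. Replicate numbers are shared by control, SLIT2 and SLIT2+APAP, but same-numbered libraries did not deviate together (correlations 0.067, -0.059 and -0.023). The numbers were therefore not taken as pairs. A replicate block had a term for replicate 2 of these groups and another for APAP 4. The term for APAP 4 left the APAP libraries out of the spread. This block gave 29 of the 33 genes (11180 of all genes) for SLIT2 against control. For SLIT2+APAP against control it gave 12 (2404 of all genes). No paired analysis was possible for the other comparisons because the APAP libraries carry the numbers 3 and 4. The cause was not tested for any of the following counts, all from edgeR unless DESeq2 is named.

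Of the 33 genes, APAP against control called 0, with 1 by DESeq2 and 0 to 8 when single libraries were left out (8 without APAP 4). SLIT2 against control called 28, where 9266 of 16876 genes were called. It called 25 by library totals (8803 of 16876 genes) and 24 with at least 10 CPM (4645 of 7393 genes). SLIT2+APAP against APAP called 5 (2348 of 16876 genes), with 3 by library totals (1861 of 16876 genes) and 8 by DESeq2 (3532 of 23006 genes). With only the 4 libraries compared it called 0 (1 of 15500 genes), with 10 of the 33 at an unadjusted p under 0.05. SLIT2+APAP against control called 3, with 1 by library totals, 5 with at least 10 CPM, 9 by DESeq2, 24 with only the 4 libraries compared, 0 without the SLIT2 libraries (17 at an unadjusted p under 0.05) and 0 to 11 when single libraries were left out (11 without APAP 3 or APAP 4, and 0 without any other, with 8 to 19 at an unadjusted p under 0.05). The interaction called 21, and 5 to 24 without single libraries, the lowest without SLIT2+APAP 1.

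Over all genes, APAP against control called 133 (56 higher, 77 lower), with 235 by library totals (144 higher, 91 lower), 205 without a filter, 1836 by DESeq2, 54 by the legacy fit, 72 with GC offsets, 0 with only the 4 libraries compared (2654 at an unadjusted p under 0.05), 0 without the SLIT2 libraries (3908) and 0 to 5181 without single libraries (5181 without APAP 4). SLIT2 against control called 9266, and 4645 with at least 10 CPM, where 7393 genes were tested. SLIT2+APAP against APAP called 2348, with 3532 by DESeq2, 1 with only the 4 libraries compared and 21 to 6134 without single libraries. SLIT2+APAP against control called 361, with 1455 by DESeq2, 4246 with only the 4 libraries compared, 3 without the SLIT2 libraries and 2 to 2558 without single libraries. The interaction called 4867, and 1002 to 8303 without single libraries. By library totals the split of SLIT2+APAP against APAP went from 1060 higher and 1288 lower to 1133 and 728, and that of SLIT2+APAP against control from 117 and 244 to 267 and 123. Depth outside the mitochondrially encoded genes was lowest in the SLIT2 libraries, at 18.9 M and 25.1 M counts.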
